A study of Mus musculus with 703 samples.

Results

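Pdk4, Angptl4, Ucp3, Plin2, Plin5, Acot2 and Mlycd are 7 genes of fatty acid handling that are known targets of the peroxisome proliferator-activated receptors (PPARs). They were chosen by symbol, with earlier results of these data known. All 7 were found among the 19088 genes measured in mouse gastrocnemius, a calf muscle, by RNA sequencing. All 7 also passed the filter on low counts in every comparison described here. The libraries, 1 per animal, came from 20 CC-RIX strains, each the F1 of a pair of Collaborative Cross lines (19 lines in all), which are recombinant inbred mice descended from the same 8 founders. From 6 weeks of age, animals ate a control diet with 10% fat or a high fat, high sugar (HFHS) diet with 44% fat. The labels of both diets add fiber. Without metformin there were 236 females and 233 males, 235 of them on 44% fat and the rest on 10% fat. With metformin, a drug for type 2 diabetes given at 5 mg/mL in the drinking water from 7 months of age, there were 57 females and 59 males on 10% fat and 59 of each sex on 44% fat. The study killed animals at 6 or 12 months and the labels give no age for an animal, so that treated animals are of the older cohort, untreated animals can be of either, and metformin and age cannot be told apart.

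PPARs are nuclear receptors that bind fatty acids and, paired with a retinoid X receptor, bind DNA at a repeated AGGTCA element with 1 base between the copies, called DR1. In skeletal muscle Ppara and Ppard are the forms best known for switching on fatty acid oxidation during fasting, exercise or a rich supply of fat, while Pparg is best known from fat cells. Pdk4 encodes a kinase that shuts down the pyruvate dehydrogenase complex and so spares glucose, and Angptl4 encodes a secreted inhibitor of lipoprotein lipase. Ucp3 is a carrier of the inner mitochondrial membrane that rises with fatty acid supply, Plin2 and Plin5 are coat proteins of lipid droplets, Acot2 splits fatty acyl-CoA in the mitochondrial matrix, and Mlycd breaks down malonyl-CoA, the inhibitor of fatty acid entry into mitochondria.

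The genes lie apart on 6 chromosomes of GRCm38, with Angptl4 (chr17:33773750-33781830, minus strand) and Plin5 (chr17:56111601-56117596, minus strand) on the same chromosome. Pdk4 is at chr6:5483351-5496309 (minus strand), Ucp3 at chr7:100472990-100486432 (plus strand), Plin2 at chr4:86648386-86670060 (minus strand), Acot2 at chr12:83987861-83993873 (plus strand) and Mlycd at chr8:119394878-119411102 (plus strand). Since these genes are known for a common receptor, their promoters were searched for DR1, that is 2 copies of AGGTCA on the same strand with 1 base between and up to 2 mismatches, on either strand of the gene, and for the FoxO core GTAAACA. Promoters of 250 bases before to 50 after the start, from RefSeq on GRCm38.p6, matched 6 of the 7 genes, all but Angptl4. DR1 matched in Ucp3, on the gene's own strand from position -51, and in Plin2, on the opposite strand from position -225, beside 3.86% of 32851 promoters of the same length. The FoxO core was in none of the 6 promoters and in 3.65% of all. A match describes these letters and is not shown to be a bound site, and no match covers this window alone. The promoters with a match are given here, with the DR1 letters in capitals, beside that of Pdk4, whose expression is the highest of the 7 and whose window held no match. They are Ucp3 (chr7:100472741-100473040, plus strand), Plin2 (chr4:86670010-86670309, minus strand) and Pdk4 (chr6:5496229-5496528, minus strand).
Ucp3: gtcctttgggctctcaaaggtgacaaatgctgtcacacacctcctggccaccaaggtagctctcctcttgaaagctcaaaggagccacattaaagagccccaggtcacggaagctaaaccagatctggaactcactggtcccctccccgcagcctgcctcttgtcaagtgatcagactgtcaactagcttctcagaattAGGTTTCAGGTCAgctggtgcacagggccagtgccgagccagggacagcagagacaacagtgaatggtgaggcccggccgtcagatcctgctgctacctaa
Plin2: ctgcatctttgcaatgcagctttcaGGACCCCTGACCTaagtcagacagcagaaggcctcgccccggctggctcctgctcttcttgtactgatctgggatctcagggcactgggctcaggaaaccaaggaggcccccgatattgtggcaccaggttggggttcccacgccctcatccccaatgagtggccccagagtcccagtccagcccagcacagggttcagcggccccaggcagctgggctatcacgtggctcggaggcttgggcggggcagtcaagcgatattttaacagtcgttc
Pdk4: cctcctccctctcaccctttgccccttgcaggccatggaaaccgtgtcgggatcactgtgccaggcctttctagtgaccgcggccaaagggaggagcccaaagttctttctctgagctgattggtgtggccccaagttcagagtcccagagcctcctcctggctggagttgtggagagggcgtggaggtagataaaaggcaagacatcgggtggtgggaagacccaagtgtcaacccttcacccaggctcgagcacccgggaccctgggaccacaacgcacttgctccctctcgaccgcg

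Per kilobase of exon, Pdk4 had the highest mean level over all libraries, 123 CPM per kb, where CPM are counts scaled by the total count of the library. Ucp3 followed at 23.3 CPM per kb, Mlycd at 15.4, Plin2 at 6.63, Plin5 at 5.19 and Acot2 at 4.74, and Angptl4 was lowest at 1.16 CPM per kb. Angptl4 was therefore measured with the fewest reads of the 7. Of the windows of 100 bases in the Acot2 transcript, 359 of 2097 (17.1%) also occur in Acot1, its neighbour at chr12:84009490-84018371, so reads of Acot2 could have been divided between the copies and its values are uncertain to that extent. Plin2 shares 4 of its 1789 windows with Gm12551, and the other 5 genes share none. An antisense gene, Gm10603, overlaps exon bases of Ucp3, and the sources used here do not say whether counting used strand.

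Total counts ran from 27368536 to 96100529 per library with a median of 47876086. Ribosomal RNA of Rn18s-rs5 took 2.2% to 26.3% of them (median 10.2%). By sex-linked expression 15 libraries went against their label, and 4 matched a strain other than their own best. Skeletal muscle markers such as Acta1 and Ckm were high throughout, with a summed level of 49300 to 158000 CPM over 10 genes. Adipocyte markers were present as well: without Car3, which muscle makes itself, the 14 others summed to 206 to 2830 CPM, with medians of 403 CPM on 10% fat and 415 CPM on 44% fat. Of these 14, Ghr had the highest mean in untreated animals, 172.7 ± 25.49 CPM (SD), followed by Fabp4 at 124.7 ± 66.69 CPM. The close sums do not mean that each marker was level: in the diet comparison below, 11 of the 15 were higher and 2 lower on 44% fat in untreated animals. Liver markers summed to 0 to 7940 CPM with a median of 2.86 CPM. In bulk tissue, fewer cells of a type and less RNA per cell cannot be told apart.

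The first comparison asked how the 44% fat diet changed these genes in untreated animals. Plin5, Angptl4, Acot2, Pdk4 and Mlycd rose on 44% fat, in decreasing order of size, while Ucp3 and Plin2 did not pass the test. Thus 5 of 7 genes were called at an adjusted p under 0.05, against 18.4% of all 16384 genes tested, and all 5 were higher, as were 9.55% of all genes (8.82% were lower). The median log2 difference was 0.32 over the 7 genes and -0.0024 over all genes. Differences are 44% minus 10% fat on the log2 scale with their standard error (SE), and adjusted p-values are from edgeR's quasi-likelihood F test with Benjamini-Hochberg adjustment over all genes unless another tool is named.

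Plin5, which tethers lipid droplets to mitochondria, ran from 3.32 to 29.8 CPM with a median of 7.41 in the untreated animals on 10% fat. On 44% fat it ran from 4.52 to 30.3 CPM with a median of 13.5 in 235 animals. The ranges overlapped, but the typical animal on 44% fat was well above the typical animal on 10% fat. Its mean rose from 8.26 ± 3.74 to 14.04 ± 4.23 CPM (SD), a log2 difference of 0.78 (SE 0.0454, adjusted p = 1.33e-48), or 1.72-fold. Plin2, the other lipid droplet coat protein, ran from 12.6 to 74.9 CPM with a median of 21.5 on 10% fat and from 11.05 to 75.9 CPM with a median of 22.01 on 44% fat. Its groups lay on top of each other, with a log2 difference of 0.03 (95% interval -0.03 to 0.08, adjusted p = 0.617).

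Acot2 had a median of 7.79 CPM on 10% fat (2.59 to 30.3) and of 12.1 CPM on 44% fat (5.05 to 30.4). Its mean rose from 8.67 ± 4.10 to 12.6 ± 4.15 CPM, by 0.56 on the log2 scale (SE 0.0471, adjusted p = 1.37e-25). Mlycd had a median of 41.2 CPM on 10% fat (25.3 to 82.7) and of 50.4 CPM on 44% fat (26.03 to 89.4). Most animals of either diet lay within a narrow band for Mlycd, so that a modest rise of 0.30 (SE 0.0261), from 42.05 ± 9.70 to 51.5 ± 10.3 CPM, had an adjusted p of 4.88e-25.

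Angptl4 ran from 0.249 to 18.7 CPM with a median of 2.25 on 10% fat and from 0.37 to 26.1 CPM with a median of 4.49 on 44% fat. Animals of each diet covered almost the whole range of the other. The mean rose from 3.17 ± 3.02 to 5.19 ± 3.73 CPM, by 0.67 on the log2 scale (SE 0.0958, adjusted p = 6.85e-10), or 1.595-fold. Pdk4 ran from 32.8 to 2261 CPM with a median of 294 on 10% fat and from 34.3 to 1965 CPM with a median of 408 on 44% fat. The spread between animals of a diet was again far wider than the shift between diets. Its mean rose from 385 ± 322 to 485 ± 313 CPM, by 0.32 (SE 0.091, adjusted p = 0.00497). Among the 69 untreated animals in the upper range of the sequencing identifiers alone, Pdk4 differed by 0.59 and was not called (adjusted p = 0.223).

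Ucp3 had a median of 60.8 CPM on 10% fat (19.8 to 245) and of 67.6 CPM on 44% fat (25.6 to 263). The groups overlapped nearly in full, and the log2 difference of 0.11 (95% interval -0.02 to 0.24) did not pass the test (adjusted p = 0.276). Limma voom gave 0.17 and called it at an adjusted p of 0.0451, as did limma trend (0.17, adjusted p = 0.0447), so that the call for Ucp3 depends on the tool.

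**Figure D1:**
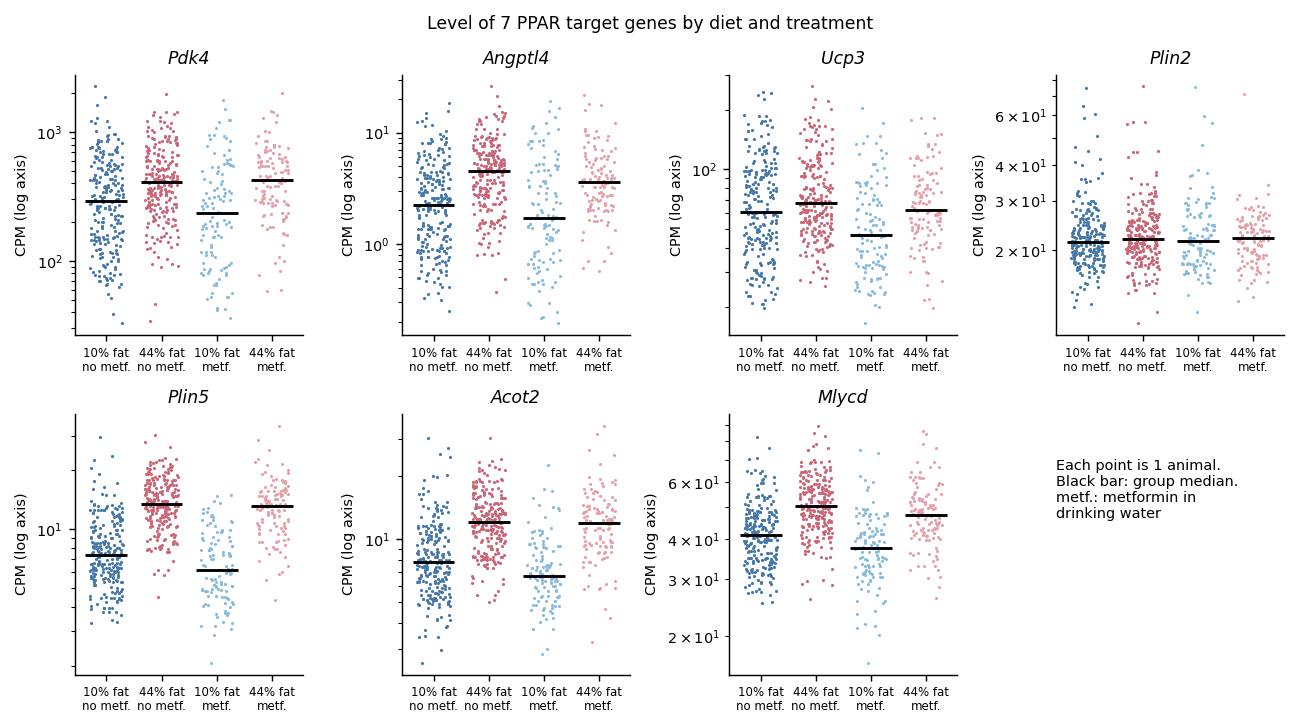
CPM (log axis) of each of the 7 genes in every animal, by diet and metformin, with a line at each group's median. Plin5 and Acot2 shift upward on 44% fat in both treatment groups, Plin2 does not, and Pdk4, Angptl4 and Ucp3 spread widely within every group.

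The same comparison was made in the animals that drank metformin, none of which entered the first fit. Here 6 of 7 genes were called, all higher on 44% fat, against 10.5% of 16418 genes (4.82% higher, 5.73% lower), and the median log2 difference was 0.646 (-0.00643 over all genes). Plin5 ran from 2.07 to 15.1 CPM (median 6.17) in the animals on 10% fat and from 4.35 to 33.9 CPM (median 13.1) in those on 44% fat. Treated animals on 44% fat were thus mostly above the treated animals on 10% fat, with a log2 difference of 0.97 (SE 0.0595, adjusted p = 4.32e-36). Acot2 rose by 0.72 (SE 0.0575, adjusted p = 1.73e-24) and Mlycd by 0.35 (SE 0.0342, adjusted p = 5.1e-18). Pdk4 rose by 0.68 (SE 0.134, adjusted p = 4.58e-05), Angptl4 by 0.65 (SE 0.15, adjusted p = 0.000805) and Ucp3 by 0.33 (SE 0.0863, adjusted p = 0.00352). Plin2 differed by -0.05 and did not pass (95% interval -0.12 to 0.03, adjusted p = 0.518).

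In the 144 treated animals of the lower identifier range alone, 3 of the 7 genes were called, beside 3.27% of 16253 genes. There Pdk4 (0.45, adjusted p = 0.22), Angptl4 (0.41, adjusted p = 0.331) and Ucp3 (0.24, adjusted p = 0.342) did not pass. Ucp3 did not pass in the upper range alone either (0.42, adjusted p = 0.0574). Plin5, Acot2 and Mlycd stayed called in both ranges. Whether the diet difference itself changed with metformin was tested as an interaction, and 0 of the 7 genes were called, beside 0.00564% of 17740 genes. Plin5 was the only member with an unadjusted p under 0.05 there (log2 0.19, SE 0.0772, p = 0.0128 before adjustment, adjusted p = 0.51), and limma trend also called 0 of the 7.

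**Figure D2:**
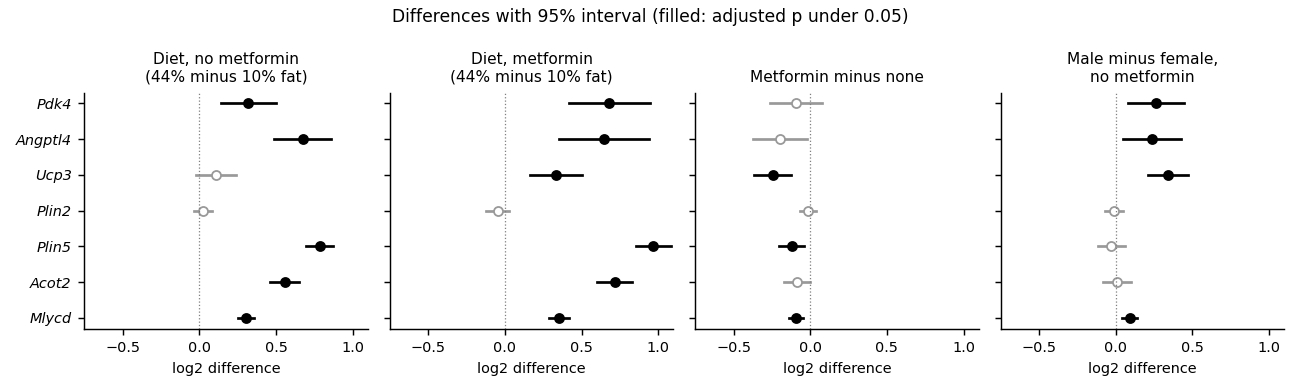
Log2 differences with 95% intervals for diet in untreated and in metformin-treated animals, for metformin, and for sex, with filled points at an adjusted p under 0.05. Plin5 is farthest to the right for diet in both panels (0.78 and 0.97), Plin2 sits near 0, and every metformin point is at or left of 0.

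Females and males were compared for the diet response by an interaction of diet with sex in untreated animals. None of the 7 genes (0 of 7) was called, as against 0.226% of all genes, and limma trend also called 0. At an unadjusted p under 0.05 there were 3, all with a larger diet difference in males: Mlycd (log2 0.16, p = 0.00208), Acot2 (0.23, p = 0.0136) and Plin5 (0.19, p = 0.033), with adjusted p-values of 0.212, 0.448 and 0.585.

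Strain was the next factor, and all 7 genes differed between the 20 strains in untreated animals, as did 93.2% of all genes. A count of 7 of 7 is therefore close to the background. Strain took a smaller share of the variance than for the typical gene in 6 of the 7: 5.44% for Plin5, 7.03% for Mlycd, 7.35% for Acot2, 8.23% for Pdk4, 9.45% for Ucp3 and 13.9% for Angptl4, beside a median of 15.4% over 16384 genes. Plin2, at 18.9%, was above that median. Diet took 39.4% for Plin5, 24.7% for Acot2, 21.2% for Mlycd, 13.6% for Angptl4 and 5.13% for Pdk4, beside a median of 0.0717% over all genes, while for Ucp3 it was 1.08% and for Plin2 0.0121%. For the first 5 of these genes, between 98.5% (Pdk4) and 100% (Plin5, rounded) of all genes had a smaller share for diet. The shares are omega squared values on log2 CPM and describe these animals without a test.

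**Figure D3:**
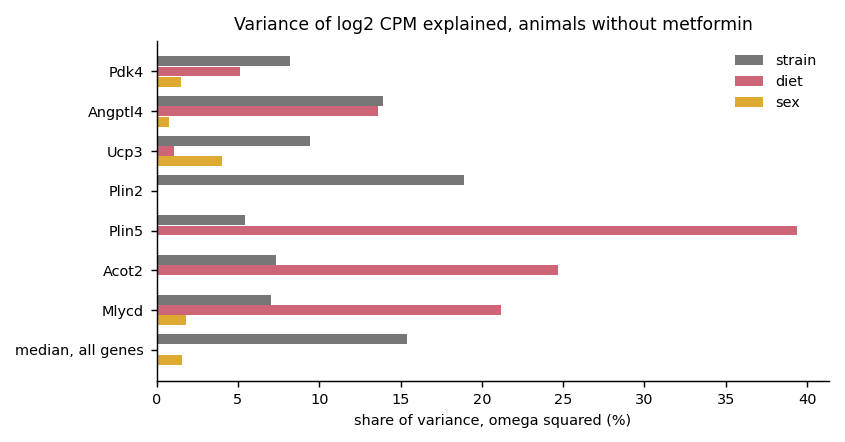
Share of the variance of log2 CPM (%) taken by strain, diet and sex in untreated animals, for each gene and for the median of all genes. Diet exceeds strain for Plin5, Acot2 and Mlycd, the 2 shares are close for Angptl4 (13.9% and 13.6%), and strain exceeds diet for Pdk4, Ucp3 and Plin2.

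Strain means of untreated animals ran from 245 to 693 CPM for Pdk4, a ratio of 2.83, and from 2.19 to 7.76 CPM for Angptl4, a ratio of 3.55. The ratio of the highest to the lowest strain was 2.25 for Ucp3 (50.7 to 114.1 CPM), 1.73 for Acot2 (7.77 to 13.4 CPM), 1.63 for Plin5 (8.94 to 14.6 CPM), 1.57 for Plin2 (17.95 to 28.2 CPM) and 1.36 for Mlycd (39.6 to 53.7 CPM). The largest step between neighbours in the order of strains was 82.3 CPM for Pdk4 and 1.83 CPM for Angptl4, where the pooled SD between animals of a strain was 305 and 3.31 CPM. The steps between neighbours were not tested.

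For Pdk4 the highest strain mean was 693 ± 486 CPM (SD, n = 24) in (CC002/UncJ x CC043/GeniUncJ)F1, followed by 611 ± 465 CPM (n = 24) in (CC019/TauUncJ x CC042/GeniUncJ)F1. The lowest was 245 ± 152 CPM (n = 24) in (CC002/UncJ x CC075/UncJ)F1. The first and the last of these both have CC002/UncJ as a parent line. The same 2 strains were at the ends for Ucp3, with means of 114.1 ± 45.1 CPM and 50.7 ± 17.9 CPM. For Angptl4 the highest mean was 7.76 ± 5.64 CPM (n = 24) in (CC019/TauUncJ x CC042/GeniUncJ)F1 and the lowest 2.19 ± 1.74 CPM (n = 24) in (CC051/TauUncJ x CC060/UncJ)F1. (CC019/TauUncJ x CC042/GeniUncJ)F1 was first or second for Pdk4, Angptl4, Plin2, Plin5, Acot2 and Mlycd. At the low end, (CC030/GeniUncJ x CC002/UncJ)F1 was last for Plin2 (17.95 ± 3.09 CPM), Plin5 (8.94 ± 4.21 CPM) and Mlycd (39.6 ± 7.09 CPM, n = 24 for each).

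By parent line, with no test, the 3 strains with CC043/GeniUncJ averaged 576 CPM of Pdk4 (512 to 693) and the 17 others 411 CPM (245 to 611). The 6 strains with CC042/GeniUncJ averaged 523 CPM of Pdk4 (422 to 611), inside the range of 245 to 693 CPM of the 14 others, which averaged 399 CPM. For Angptl4 the same 6 strains averaged 5.46 CPM (4.01 to 7.76) and the 14 others 3.67 CPM (2.19 to 5.80). The 3 strains with CC051/TauUncJ averaged 324 CPM of Pdk4 and lay at 267 to 411 CPM, inside the range of 245 to 693 CPM of the 17 others. Strain means of untreated and of treated animals correlated, as a description over 20 strains, at r = 0.797 for Angptl4, 0.74 for Plin2, 0.652 for Acot2, 0.606 for Plin5, 0.604 for Mlycd, 0.544 for Pdk4 and 0.298 for Ucp3. Angptl4 thus kept its order of strains most closely between the treatment groups and Ucp3 least.

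**Figure D4:**
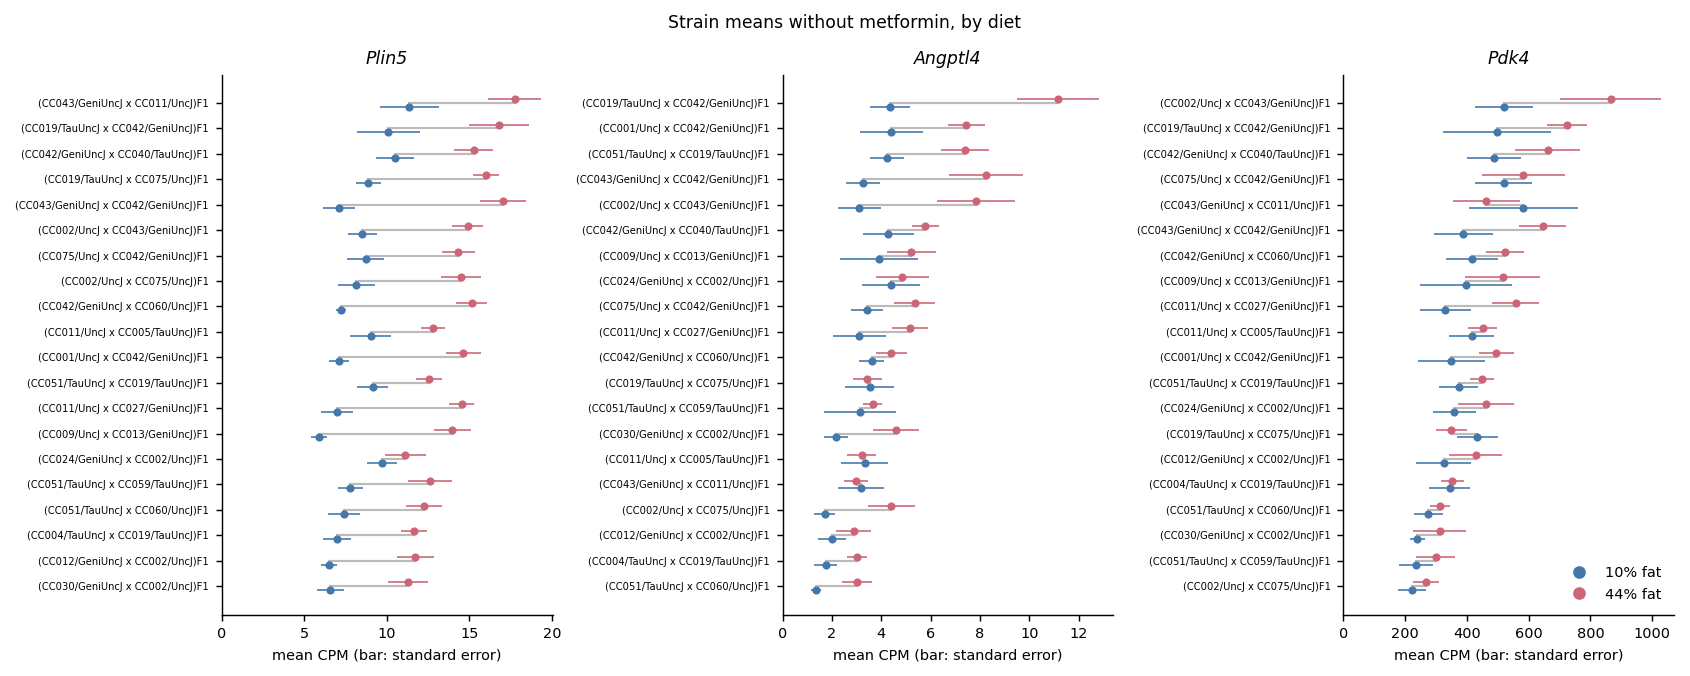
Means of untreated animals on 10% and 44% fat (CPM, with standard errors) in each of the 20 strains, ordered by their mean, for Plin5, Angptl4 and Pdk4. The mean for Plin5 is higher on 44% fat in all 20 strains, while for Pdk4 the standard errors of the diets overlap in most strains.

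Within strains, the diet estimate was above 0 in 20 of 20 strains for Plin5, Acot2, Mlycd and Angptl4. It was above 0 in 19 strains for Pdk4, 14 for Plin2 and 13 for Ucp3. By size it ran from 0.16 to 1.32 for Plin5, from 0.30 to 0.92 for Acot2, from 0.10 to 0.66 for Mlycd, from 0.18 to 1.63 for Angptl4 and from -0.09 to 1.14 for Pdk4. The estimate exceeded 2 SE in 19 strains for Plin5, 17 for Acot2, 13 for Mlycd, 11 for Angptl4 and 4 for Pdk4. Estimates are on log2 CPM, and plain means of CPM can go the other way. For Angptl4 in (CC043/GeniUncJ x CC011/UncJ)F1, for example, the mean was 3.17 CPM on 10% fat and 2.97 CPM on 44% fat. Whether strains differed in the diet response was tested by the interaction of diet with strain. Of the 7 genes 0 were called, beside 3.27% of all genes (limma trend called 0 as well). Plin2 alone had an unadjusted p under 0.05 (p = 0.0224, adjusted p = 0.253). Between treated and untreated animals, the diet estimates of the 20 strains correlated at r = 0.553 for Plin5 and at -0.189 to 0.163 for the other 6 genes, given as a description. By rank, rho was 0.359 for Plin5, 0.335 for Plin2 and -0.245 to -0.00451 for the rest, so Plin5 stood apart by r but not by rho. In animals given metformin the estimate was above 0 in 20 strains for Plin5 and Acot2, 19 for Mlycd, 16 for Angptl4 and Ucp3, 15 for Pdk4 and 11 for Plin2.

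The strains with the largest and smallest diet estimates show what these differences look like among animals. For Plin5 the largest, 1.32 (SE 0.192), was in (CC043/GeniUncJ x CC042/GeniUncJ)F1. Its females ran from 4.42 to 17.7 CPM (median 6.38, n = 7) on 10% fat and from 8.34 to 22.7 CPM (median 18.1, n = 6) on 44% fat. Its males ran from 3.77 to 8.03 CPM (median 6.03, n = 6) and from 12.55 to 21.99 CPM (median 17.8, n = 6). The males of the 2 diets did not overlap, and 3 of the 7 females on 10% fat were above the lowest female on 44% fat. In the strain with the smallest estimate, (CC024/GeniUncJ x CC002/UncJ)F1, males had medians of 9.44 CPM on 10% fat (8.46 to 15.04) and 9.82 CPM on 44% fat (5.82 to 12.8), which overlapped widely. Females of that strain had medians of 8.10 CPM on 10% fat (6.41 to 16.5) and 10.98 CPM on 44% fat (7.69 to 23.03), which overlapped as well.

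For Pdk4 the largest estimate, 1.14 (SE 0.416), was in (CC001/UncJ x CC042/GeniUncJ)F1. Its females ran from 71.3 to 133 CPM (median 80.3, n = 6) on 10% fat and from 243 to 551 CPM (median 496, n = 6) on 44% fat. Its males ran from 151 to 1212 CPM (median 665, n = 6) on 10% fat and from 275 to 930 CPM (median 529, n = 6) on 44% fat. The females of the 2 diets did not overlap and the males lay in the same range. In (CC019/TauUncJ x CC075/UncJ)F1, with the smallest estimate (-0.09, SE 0.416), females had 76.9 to 748 CPM (median 567) on 10% fat and 154 to 661 CPM (median 301) on 44% fat, n = 6 each. Males of that strain had 149 to 580 CPM (median 476) and 210 to 465 CPM (median 286).

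For Angptl4 the largest estimate, 1.63 (SE 0.419), was in (CC002/UncJ x CC043/GeniUncJ)F1. Its males ran from 0.494 to 3.46 CPM (median 1.46, n = 6) on 10% fat and from 3.06 to 21.3 CPM (median 7.09, n = 6) on 44% fat. Its females ran from 0.76 to 9.69 CPM (median 3.42, n = 6) and from 2.00 to 9.76 CPM (median 6.72, n = 6). A narrow overlap remained in males and a wide overlap in females. For Mlycd the largest estimate, 0.66 (SE 0.179), was in (CC009/UncJ x CC013/GeniUncJ)F1, all of whose libraries lie in the upper identifier range. Its untreated females had 32.8 and 33.3 CPM on 10% fat and 46.5, 48.9 and 57.6 CPM on 44% fat. Its untreated males had 36.9 and 38.3 CPM and 45.6, 48.01 and 84.6 CPM. Every animal on 44% fat was above every animal on 10% fat in that strain, though it holds 10 untreated animals alone.

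The spread between animals of the same strain, sex, diet and treatment was widest for Angptl4, Pdk4 and Ucp3 among the 7 genes. Over the 153 combinations with at least 3 animals, the median coefficient of variation of CPM was 56.2% for Angptl4, 47.9% for Pdk4 and 36.6% for Ucp3. It was 27.8% for Acot2, 26.6% for Plin5, 17.1% for Mlycd and 14.4% for Plin2. The median over 10705 genes was 13.1% (quartiles 10.7% and 17.1%), and 99.9%, 99.7% and 99.1% of those genes varied less than Angptl4, Pdk4 and Ucp3. In the typical combination the highest animal had 3.90 times the Angptl4 and 3.38 times the Pdk4 of the lowest. The largest such ratio was 50.3 for Angptl4 and 43.9 for Pdk4, and it was 2.62 for Mlycd. These spreads are a description without a test. Untreated animals of a combination can be of either age cohort, so age cannot be told apart from other differences between them.

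The combination with the widest spread of Pdk4, chosen after the values were seen, was untreated females of (CC019/TauUncJ x CC042/GeniUncJ)F1 on 10% fat. The lowest of its 6 animals had 51.5 CPM of Pdk4 and the highest 2261 CPM, the highest value of all libraries. The animal with 2261 CPM of Pdk4 also had the highest Ucp3 (227 CPM), Plin5 (22.6 CPM), Acot2 (27.04 CPM), Mlycd (54.3 CPM) and Angptl4 (10.3 CPM) of the 6. The other 5 had 23.3 to 57.1 CPM of Ucp3 and 5.26 to 11.3 CPM of Acot2. Plin2 did not follow, with 23.9 CPM in that animal and 16.9 to 39.97 CPM in the others. Angptl4, unlike Pdk4, was nearly as high in another animal of the 6 (8.98 CPM).

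Whether genes rose and fell together between animals was asked over all libraries, on log2 CPM after subtracting the mean of each combination of strain, sex, diet and treatment and the difference between identifier ranges. There were 21 pairs of genes. Pdk4 and Ucp3 were the closest pair, with r = 0.871 and rho = 0.862 (permutation p = 1e-05 for both, the smallest these 100000 permutations can give, and 1.31e-05 after Benjamini-Hochberg adjustment over 21 pairs). Without the 2 animals farthest from the median of Pdk4, r was 0.867, and it was 0.878 in the lower and 0.873 in the upper identifier range. Pdk4 and Ucp3 thus followed each other in both ranges about equally. Plin5, Acot2 and Mlycd made up a second close set, with r = 0.749 for Plin5 and Mlycd, 0.744 for Plin5 and Acot2 and 0.736 for Acot2 and Mlycd (rho 0.722, 0.697 and 0.708, each with a permutation p of 1e-05 and an adjusted p of 1.31e-05). Without the 2 farthest animals these were 0.742, 0.732 and 0.727. They were 0.764, 0.77 and 0.777 in the lower range and 0.715, 0.555 and 0.541 in the upper range.

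Pdk4 also correlated with Acot2 (r = 0.623, rho = 0.602), Mlycd (r = 0.618, rho = 0.611), Angptl4 (r = 0.613, rho = 0.623) and Plin5 (r = 0.528, rho = 0.489), each with a permutation p of 1e-05 and an adjusted p of 1.31e-05. Without the 2 farthest animals, r was 0.61, 0.608, 0.618 and 0.507. Plin2 correlated weakly with 5 of the 6 over all libraries: r was -0.00536 with Pdk4 (rho = -0.00884, permutation p = 0.886), 0.0358 with Ucp3 (rho = 0.0315, p = 0.343), 0.0245 with Plin5 (rho = -0.0268, p = 0.516) and -0.0103 with Mlycd (rho = -0.0203, p = 0.783). With Acot2 it was -0.0778 (rho = -0.1, permutation p = 0.0386, adjusted p = 0.0477). The permutations shuffled residuals over all libraries and did not count the combination means already subtracted. Their p-values are therefore too small, and this pair, close to the limit, cannot be taken as passing. For Plin2 and Acot2, r was -0.0484 in the lower range alone (permutation p = 0.261) and -0.321 in the upper range alone (159 animals, permutation p = 1e-04, the smallest that 10000 permutations can give). The 6 genes other than Plin2 were thus positively correlated in every pair, the lowest r being 0.323 for Angptl4 and Plin5. All values of a library share its depth and its normalisation. Age is not in the labels and was not subtracted, so these correlations can also carry it.

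Angptl4 was the only gene that correlated with Plin2 above 0.1 (r = 0.343, rho = 0.287, permutation p = 1e-05), and both also followed adipocyte markers. With the summed adipocyte markers other than Car3, r was 0.687 for Plin2 and 0.489 for Angptl4. It was 0.136 for Plin5 and between 0.0401 and 0.0816 for Pdk4, Ucp3, Mlycd and Acot2. Single markers in that sum went both ways. For Plin5, r was lowest with Ghr (-0.315), the marker with the highest mean, and highest with Pck1 (0.351). The same markers were at the ends for Mlycd (-0.286 and 0.253) and Acot2 (-0.26 and 0.313). A low r with the sum can therefore hide opposite values, and whether the sum follows fat cells was not tested. After adjustment for the adipocyte markers with Car3 and the slow fibre markers, r between Angptl4 and Plin2 was 0.193 (permutation p = 1e-04). After adjustment for the adipocyte markers other than Car3 instead, a set chosen after seeing the data, it was 0.0112 (permutation p = 0.766). With that set r was 0.87 between Pdk4 and Ucp3 and -0.185 between Plin2 and Acot2 (permutation p = 1e-04). Diet differences in untreated animals with these markers as a covariate kept the same 5 of 7 genes called.

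**Figure D5:**
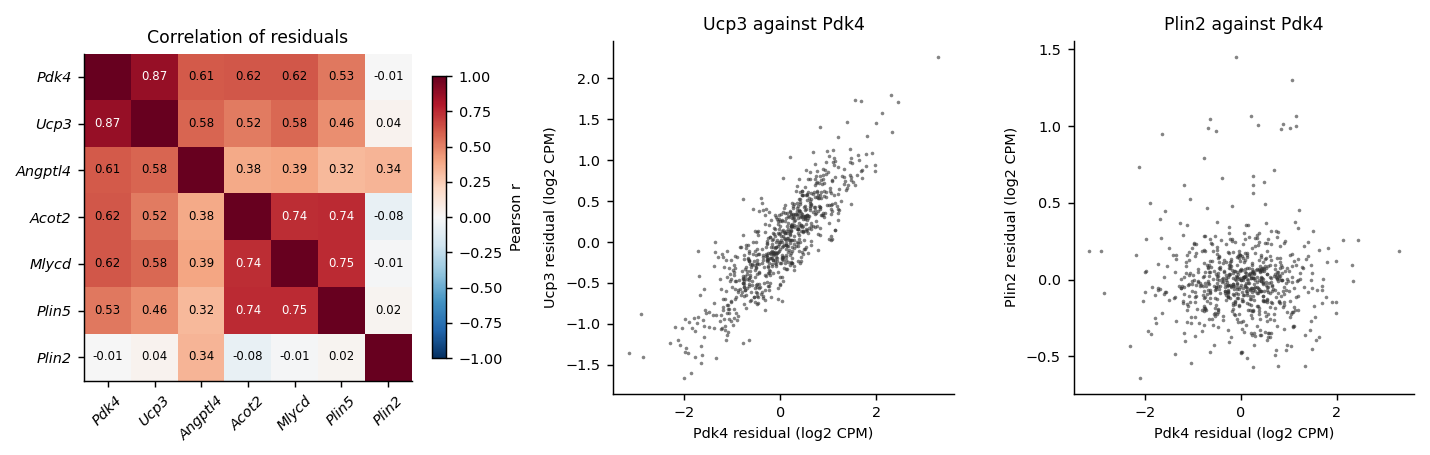
Pearson's r of residual log2 CPM for the 21 pairs (color scale from -1 to 1) and the residuals of Ucp3 and Plin2 against those of Pdk4 in every animal. Ucp3 follows Pdk4 along a line (r = 0.871), while Plin2 forms a cloud with no trend (r = -0.00536).

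The genes most like each member in the same residuals, over all libraries, were taken from those whose log2 CPM averaged 1 or more. For Pdk4 they were Ucp3 (r = 0.871), Cpt1a (0.708), the liver-type enzyme of fatty acid entry into mitochondria, Slc25a22 (0.661), Pank1 (0.64), which starts the synthesis of coenzyme A, and Slc25a34 (0.637). For Ucp3 they were Pdk4, Cpt1a (0.729), Synj2 (0.688), Slc25a22 (0.639) and Rbp7 (0.633). Angptl4 was nearest to Pck1 (0.673), a gluconeogenic enzyme also made by fat cells, followed by Pdk4, Cpt1a (0.595), Mgll (0.586) and Ucp3. For Plin5 the list held Slc25a34 (0.794), Acsl1 (0.75), which activates long-chain fatty acids, and Slc25a20 (0.709), the carnitine carrier, besides Mlycd and Acot2. Slc25a34 was also among the nearest 5 of Acot2 (0.724) and Mlycd (0.758). Acot2 was further near Acsl1 (0.687) and Cat (0.664), and Mlycd near Agpat3 (0.712) and Rab11b (0.682). Plin2 had a different list, Agpat2 (0.76), Tkt (0.733), Pygl (0.714), Hsd17b12 (0.707) and the adipocyte fatty acid binding protein Fabp4 (0.685). The median r over all genes lay between -0.0106 and 0.0295 for the 7 members.

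Males and females were compared in untreated animals. Ucp3, Pdk4, Angptl4 and Mlycd were higher in males and the other 3 genes did not pass: 4 of 7 were called, against 65.2% of all genes (29.5% higher and 35.7% lower in males), so the share of members called is no greater than that of all genes. Ucp3 had a median of 60.4 CPM in 236 females (19.8 to 238) and of 73.3 CPM in 233 males (20.7 to 263). Both sexes covered the same range, and the log2 difference was 0.34 (SE 0.0661, adjusted p = 1.14e-06). Pdk4 had a median of 316 CPM in females (32.8 to 2261) and of 378 CPM in males (34.3 to 1965), a difference of 0.26 (SE 0.092, adjusted p = 0.00821). Angptl4 differed by 0.24 (SE 0.0954, adjusted p = 0.0229), from 3.94 ± 3.30 CPM in females to 4.43 ± 3.76 CPM in males, and Mlycd by 0.09 (SE 0.0261, adjusted p = 0.00132). Plin2 (-0.01, adjusted p = 0.727), Plin5 (-0.03, adjusted p = 0.593) and Acot2 (0.01, adjusted p = 0.909) did not pass. The sexes also differed in tissue markers: all 10 slow fibre markers and 12 of 15 adipocyte markers were lower in males, with summed slow fibre markers of 1070 to 4970 CPM in females and 540 to 2980 CPM in males. With the slow fibre markers as a covariate, none of the 4 genes passed: Ucp3 differed by 0.16 (adjusted p = 0.213), Pdk4 by 0.25 (adjusted p = 0.175), Mlycd by 0.03 (adjusted p = 0.576) and Angptl4 by -0.16 (adjusted p = 0.406). Plin2 did pass there, at -0.20 (adjusted p = 0.000153), and was the only 1 of the 7 called. The Pdk4 estimate of 0.25 was close to the 0.26 without this covariate, though its call ended. Over all animals the summed slow fibre markers had medians of 2510 CPM in females and 1530 CPM in males, so this covariate carries sex itself. Whether these markers account for the sex differences was not tested. With the summed adipocyte markers as a covariate Plin2 turned to 0.37 (adjusted p = 1.43e-13) and Angptl4 stayed called at 0.99, while Pdk4 (adjusted p = 0.173), Ucp3 (adjusted p = 0.0989) and Mlycd (adjusted p = 0.654) did not pass. Car3, which muscle makes itself, is 73.3% of that sum. With the markers other than Car3, a set chosen after seeing the data, Ucp3, Pdk4, Angptl4 and Mlycd all stayed called. Plin2 turned to 0.14 there (adjusted p = 9.54e-10). Scaled by total counts in place of TMM, Angptl4 (0.18, adjusted p = 0.0866) and Mlycd (0.03, adjusted p = 0.339) lost their calls and Plin2 was called lower in males (-0.08, adjusted p = 0.0286). Angptl4 was called in neither identifier range alone (adjusted p = 0.0934 and 0.0936). In the upper identifier range alone Ucp3 and Mlycd were called.

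Animals given metformin were compared with untreated animals, a contrast that also carries age. Ucp3, Mlycd and Plin5 fell slightly and no member rose: 3 of 7 were called, against 16.2% of 17740 genes, and 3 of 7 were lower against 9.21% (7.01% were higher). The median log2 difference was -0.0949 over the 7 genes and -0.00226 over all. Ucp3 had a median of 65.9 CPM in untreated animals (19.8 to 263) and of 56.1 CPM in treated animals (16.6 to 205). The groups overlapped widely, with means of 77.4 ± 43.3 and 64.7 ± 35.3 CPM and a log2 difference of -0.24 (SE 0.061, adjusted p = 0.0015). Mlycd had means of 46.8 ± 11.1 and 43.4 ± 11.6 CPM, a difference of -0.09 (SE 0.0236, adjusted p = 0.00147). Plin5 differed by -0.12 (SE 0.0412, adjusted p = 0.027). Adipocyte markers moved as well, with 6 of 15 lower, 1 higher and a median of -0.142, and those other than Car3 summed to 206 to 1600 CPM in untreated animals (median 417) and to 237 to 2830 CPM in treated animals (median 396). With the latter as a covariate Ucp3 (-0.24) and Mlycd (-0.09) stayed called and Plin5 (-0.10, adjusted p = 0.0904) did not. Angptl4 (-0.20, adjusted p = 0.118), Acot2 (-0.09, adjusted p = 0.145), Pdk4 (-0.09, adjusted p = 0.501) and Plin2 (-0.02, adjusted p = 0.732) did not pass. In the upper identifier range alone, with 69 untreated and 90 treated animals, 0 of 7 members and 1 of 17683 genes were called by edgeR. Ucp3 differed by -0.09 there (adjusted p = 0.957), Mlycd by -0.07 (adjusted p = 0.94) and Plin5 by 0.01 (adjusted p = 0.995). In the lower range alone, 3 of 7 were called, beside 18.9% of 17892 genes.

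The difference between treated and untreated animals, which also carries age, varied between strains for 2 of the 7 genes, against 8.89% of all genes. These were Ucp3 (adjusted p = 0.00411) and Pdk4 (adjusted p = 0.0416). Ucp3 ran from -1.03 (SE 0.245) in (CC002/UncJ x CC043/GeniUncJ)F1, where its mean was 114.1 ± 45.1 CPM in 24 untreated and 58.7 ± 37.3 CPM in 12 treated animals, to 0.33 (SE 0.253) in (CC011/UncJ x CC027/GeniUncJ)F1. In that second strain the means were 76.6 ± 53.01 CPM in 24 untreated and 90.7 ± 50.5 CPM in 11 treated animals. Pdk4 ran from -0.80 (SE 0.436) in (CC009/UncJ x CC013/GeniUncJ)F1 to 0.87 (SE 0.371) in (CC011/UncJ x CC027/GeniUncJ)F1. Its estimate was negative in 13 strains and positive in 7, and that of Ucp3 negative in 14 and positive in 6. Limma trend did not call either gene for this interaction (adjusted p = 0.0603 for Ucp3 and 0.0995 for Pdk4), so that both calls depend on the tool. Without the 19 libraries that go against a label, limma trend gave adjusted p-values of 0.0296 for Ucp3 and 0.0539 for Pdk4. Metformin by sex called 0 of the 7 genes, against 1.87% of all genes. At an unadjusted p under 0.05 there were 2, Acot2 (p = 0.0166) and Plin2 (p = 0.0216), and limma trend called 0.

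The receptors and their partners changed little with diet. Of 13 such genes, 2 were higher and 3 lower on 44% fat in untreated animals, with a median of -0.022, and Ppara (0.03, adjusted p = 0.743), Ppard (-0.02, adjusted p = 0.514), Pparg (-0.05, adjusted p = 0.579) and the coactivator Ppargc1a (-0.07, adjusted p = 0.321) did not pass. The largest called differences for diet were those of Ppargc1b (0.12), Lpin1 (-0.10), Ncoa1 (-0.06) and Med1 (-0.04), all coactivators of nuclear receptors. With metformin, Ppara fell by 0.24 on the log2 scale (adjusted p = 1.12e-07), from 9.57 to 7.96 CPM, and Ppargc1a fell by 0.14 (adjusted p = 0.0136). For this list and those below, the shares of all genes on 44% fat were 9.55% higher and 8.82% lower in untreated animals. In treated animals they were 4.82% higher and 5.73% lower, and with metformin 7.01% were higher and 9.21% lower.

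Other genes known to respond to PPARs mostly rose on 44% fat. Of 29 measured, 25 were higher on 44% fat in untreated animals, beside 9.55% of all genes. None was lower and 4 did not pass, with a median of 0.252. In treated animals 24 were higher (median 0.28), beside 4.82% of all genes. The largest changes in untreated animals were in Fabp3 (0.87, from 159 to 289 CPM), the muscle fatty acid binding protein, and Acot1 (0.83, from 0.816 to 1.39 CPM), a cytosolic thioesterase. Ech1 (0.46) and Acadl (0.43), enzymes of beta-oxidation, followed. With metformin, 1 was higher and 17 were lower (median -0.0437), among them Plin4 (-0.15).

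The genes around each member were described from lists as well. Of 13 genes of the pyruvate dehydrogenase complex, on which Pdk4 acts, 6 were higher on 44% fat and none was lower, but the changes were small (median 0.0386): Pdhx 0.08, Dld 0.06, Dlat 0.05 and Pdpr 0.04. With metformin, 6 of the 13 were lower, led by the pyruvate carriers Mpc1 (-0.09) and Mpc2 (-0.07). Of 11 genes of the lipoprotein lipase system, in which Angptl4 acts, 4 were higher and 1 lower on 44% fat. Angptl8, a partner in lipase inhibition, fell by 0.82 on the log2 scale, in the direction opposite to Angptl4. It was near the floor, at 0.289 ± 0.395 CPM on 10% fat and 0.148 ± 0.224 CPM on 44% fat (SD). Cd36 (0.36), which takes up fatty acids, Lpl (0.11) and Gpihbp1 (0.09) were higher, and Gpihbp1 (-0.14) and Lpl (-0.13) were lower with metformin.

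Of 16 other lipid droplet proteins and lipases, 9 were higher and 1 lower on 44% fat in untreated animals (median 0.163), led by Cidec (0.29), Mgll (0.26), Lipe (0.24) and Plin1 (0.23). In treated animals 4 were higher and 2 lower, with a median of -0.00398. Cidec, Lipe and Plin1 are also adipocyte markers, of which 11 of 15 were higher and 2 lower on 44% fat in untreated animals. With metformin 10 of the 16 were lower, led by Cidec (-0.25) and Dgat2 (-0.20). Of 9 other acyl-CoA thioesterases, Acot1, which shares sequence with Acot2, was the only gene called for diet in untreated animals. In treated animals Acot1 (1.00) was called higher and Them4 (-0.11) lower, and 3 of the 9 were lower with metformin, led by Acot7 (-0.10) and Them4 (-0.09). Of 9 genes of malonyl-CoA and carnitine palmitoyltransferases, which Mlycd touches, 3 were higher and 2 lower on 44% fat in untreated animals. Fasn, which uses malonyl-CoA, fell by 1.25 and Acaca, which makes it, by 0.72 on the log2 scale. Cpt1b (0.20) and Cpt1a (0.19), which malonyl-CoA inhibits, were higher, as was Acacb (0.07, from 338 to 353 CPM), the other carboxylase that makes it, named after its values were seen. Of 7 relatives of Ucp3, Ucp2 (0.29) and Slc25a4 (0.07) were higher and Slc25a14 (-0.11) lower, and with metformin 4 were lower, led by Slc25a30 (-0.30) and Ucp2 (-0.14).

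Pdk4 is also a known target of FoxO factors and glucocorticoids. Of 20 genes that respond to these, 3 were higher and 1 lower on 44% fat (median 0.0408): Ddit4 (0.36), the ubiquitin ligases Fbxo32 (0.16) and Trim63 (0.08), and Gadd45a (-0.15). With metformin 2 were higher and 11 lower (median -0.151), led by Ddit4, which fell by 0.75 on the log2 scale from 5.82 to 3.01 CPM, and Cebpd (-0.27).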

How the data were processed

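Per the methods of the study, the authors aligned reads of polyA RNA as single-end reads to the transcriptomes of the 8 founder strains and divided them between genes by expectation maximisation, giving estimated counts, and dropped genes with few reads. The deposited estimated counts, already whole numbers, were used for every main test. The submitters' processing notes name GRCm38 and DESeq2. The deposited score, a variance-stabilising transformation of the counts by the authors, served as an alternative scale for limma tests, variance shares and correlations. No column was of unknown sample (0 columns).

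The 7 genes and the gene lists were chosen with earlier results of these data known. Groups followed the labels, with 1 animal per library. Tests were edgeR 4.0.16 quasi-likelihood F tests (R 4.3.3, TMM, filterByExpr) with strain, sex, diet, lower or upper range of the sequencing identifier in the labels and, over all animals, treatment as terms. Interactions were added singly. Genes were called at an adjusted p under 0.05. SE was derived from the estimate and F, and intervals are 95%. CPM were scaled by total counts, and log2 CPM used TMM and a prior count of 2. Diet and metformin estimates by strain came from limma 3.58.1. Alternatives were limma trend and voom, DESeq2 1.42.0, other scalings and filters, each identifier range, marker covariates, and leaving out strains, label-conflict libraries or the 5% of libraries highest in a marker list. The edgeR and limma fits were tested on simulated counts, with the same dispersion for all genes and no strain or sex differences. That check does not cover genes as variable as Angptl4, Pdk4 and Ucp3. Beyond the members, named genes were Ppara, Ppard, Pparg, Ppargc1a and Acot1, up to 4 genes of a list with the largest called diet difference and 2 with the largest called metformin difference, and the 5 genes most like each member; 1 gene that this rule names is not reported here. Strains were named by the highest and lowest means or estimates.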

Additional observations from a re-analysis of the deposited data

Results flagged for a closer look

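Of 31 sets of values looked at, each a gene in a group of 6 to 8 animals, 8 held an animal whose distance from its nearest neighbour was beyond Dixon's limit. Chance passes that limit in about 5% of groups, a rate that cannot be set against these 8, since the strains and the combination were picked by their values and 7 of the sets are of the same 6 animals. Of the 8, 4 were of 1 animal, the untreated female of (CC019/TauUncJ x CC042/GeniUncJ)F1 on 10% fat with 2261 CPM of Pdk4, 227.0 CPM of Ucp3, 22.61 CPM of Plin5 and 27.04 CPM of Acot2. Among females of (CC024/GeniUncJ x CC002/UncJ)F1, Plin5 reached 16.5 CPM in 1 animal on 10% fat and 23.03 CPM in 1 animal on 44% fat. Plin5 reached 17.7 CPM in 1 female of (CC043/GeniUncJ x CC042/GeniUncJ)F1 on 10% fat. Angptl4 reached 11.5 CPM in 1 female of (CC011/UncJ x CC005/TauUncJ)F1 on 10% fat. Over all 78 combinations of strain, sex, diet and treatment with 4 to 10 animals, between 5 (Ucp3) and 12 (Plin2 and Plin5) held such an animal.

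The metformin difference varied between strains by edgeR's quasi-likelihood F test of the interaction for Ucp3 (adjusted p = 0.00411) and Pdk4 (adjusted p = 0.0416). Ucp3 was lower in treated animals in 14 of 20 strains and Pdk4 in 13 of 20. Metformin and age cannot be told apart in this contrast.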

How the results depend on the processing

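The diet differences of Plin5, Acot2 and Mlycd kept their direction and stayed called under every alternative run, in untreated animals at 0.59 to 1.06, 0.42 to 0.76 and 0.28 to 0.43. In the lower identifier range alone, 3 members were called for diet in treated animals, beside 3.27% of all genes. In the upper range alone, 0 members were called for metformin, where Plin5 turned to 0.007236 (adjusted p = 0.995), and 2 for sex. In the main fit the sex comparison called 65.2% of all genes. It called 2 members with the summed adipocyte markers as a covariate and 1 with the slow fibre markers. There Plin2 turned to 0.37 with the adipocyte markers and to 0.14 with those other than Car3, and Angptl4 to -0.16 with the slow fibre markers. Metformin by strain called 0 members by limma trend with all libraries, 0 in the lower and 0 in the upper range, and 1 without the libraries that go against a label. The correlation of Plin2 and Plin5 turned to -0.167 in the upper range and to -0.0957 after adjustment for adipocyte markers other than Car3. For metformin, limma voom and trend also called Angptl4 (-0.26 and -0.27), and the call for Plin5 ended with voom (-0.09), without the libraries that go against a label (-0.11, adjusted p = 0.0513), without those highest in liver markers (-0.11, adjusted p = 0.0708) and with adipocyte markers other than Car3 (-0.10). It also ended in 7 of the 20 limma trend fits that leave out a strain, at -0.0956 without (CC002/UncJ x CC043/GeniUncJ)F1 (adjusted p = 0.119) and down to -0.1145 in the other 6, those without CC004/TauUncJ x CC019/TauUncJ, CC012/GeniUncJ x CC002/UncJ, CC024/GeniUncJ x CC002/UncJ, CC042/GeniUncJ x CC060/UncJ, CC043/GeniUncJ x CC011/UncJ or CC051/TauUncJ x CC059/TauUncJ. For sex, the call for Angptl4 ended without the libraries highest in liver markers (0.20, adjusted p = 0.0703) and without CC001/UncJ x CC042/GeniUncJ, CC051/TauUncJ x CC019/TauUncJ or CC051/TauUncJ x CC059/TauUncJ (adjusted p 0.0641 to 0.0949, limma trend). Leaving out each strain in turn, by limma trend, called 5 to 6 members for diet in untreated animals, 6 in treated animals, 2 to 4 for metformin, 3 to 4 for sex and 7 for strain. In that order, the main edgeR fits called 18.4%, 10.5%, 16.2%, 65.2% and 93.2% of all genes. The counts for sex and strain thus say little about these 7 genes in particular. In all genes, metformin called 1 in the upper range alone, 3381 in the lower and 4156 without a term for the range, beside 2877. Diet in untreated animals called between 299 (upper range) and 3276 (voom) genes, beside 3009, and in treated animals between 532 (lower range) and 2036 (voom), beside 1732. By limma trend, metformin by strain called 543 genes against 1577, diet by strain 0.623% of genes against 3.27%, and metformin by sex 217 against 331. The causes were not tested. No paired analysis was possible because every label carries the same replicate number. Angptl4, the least abundant member, was not tested with a minimum mean of 5 CPM. The covariates with the adipocyte markers other than Car3 were chosen after seeing the data.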

Other observations

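Marker lists of other cell types are given as counts of genes called by edgeR's quasi-likelihood F test. Of all genes, 9.55% were higher and 8.82% lower on 44% fat in untreated animals. With metformin 7.01% were higher and 9.21% lower, and in untreated males 29.5% were higher and 35.7% lower than in females. Of 10 endothelial markers, 6 were higher on 44% fat in untreated animals and none was lower (median log2 difference 0.0685), and with metformin 1 was higher and 4 were lower. Of 10 fibroblast markers, 4 were lower on 44% fat and 5 with metformin, with medians of -0.0833 and -0.086, and none was higher. None of the 10 macrophage markers and none of the 10 liver markers was called for diet or metformin. Of 12 fast fibre markers, 1 was higher and 4 were lower on 44% fat in untreated animals, and 9 were higher and 3 lower in males. Of 10 skeletal muscle markers, 2 were higher on 44% fat, and of 10 slow fibre markers 4 were higher and none was lower. Their part in the differences of the 7 genes was not tested, beyond the slow fibre and adipocyte markers used as covariates and the fits without the libraries highest in adipocyte or liver markers.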
